A study of Mus musculus with 21 samples.

Results

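Wild-type adult male mice received polystyrene nanoplastics (nanometre-sized plastic particles) for 8 weeks, or distilled water as controls, and sections of their hearts were sequenced. The results concern the libraries labelled atrial section, 7 of the 21 in the series, chosen by that label: 4 from mice given nanoplastics and 3 from controls, with 1 library per mouse. Hearts were flushed with cold buffer before they were divided, RNA was isolated with TRIZOL, and polyadenylated RNA was sequenced after samples had been barcoded and pooled. Neither the labels nor the design text states the dose, the route or the particle size. The mice are separate animals by their labels, so the tests measure the spread between mice.

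The atria are the thin-walled upper chambers of the heart, which fill the ventricles, carry the sinus node and release natriuretic peptides. Atrial muscle cells are told from ventricular ones by their own myosin light chains (Myl7 and Myl4), by the calcium pump regulator sarcolipin (Sln) and by a high content of the peptide gene Nppa, whereas Myl2 is the light chain of ventricular muscle. All heart muscle depends on mitochondria for energy, and the respiratory chain is built from nuclear genes together with genes in mitochondrial DNA.

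Most of these libraries held few atrial muscle transcripts. Together, Myl7, Myl4 and Sln reached, in CPM (counts scaled to a common library total), 19.9, 297 and 52.9 CPM in control mice 1 to 3. It was 38990, 66.6, 10.1 and 2969 CPM in nanoplastics mice 1 to 4. Nanoplastics mouse 1 stood far above all others, mouse 4 came next, and mouse 3 was the lowest of the 7. In the left ventricle of the same animals the sum was 4.51 to 41.1 CPM in 6 mice and 1605 CPM in nanoplastics mouse 4. Control mouse 1 and nanoplastics mouse 3 thus lay inside the range of those 6 ventricular libraries, and control mouse 3 and nanoplastics mouse 2 lay just above it. In the atrial comparison, counts, list medians and log2 differences of the genes described are therefore mostly given with and without nanoplastics mouse 1. Values with library totals alone or the length trend removed, and counts by length bin, are given with that mouse only. So are left ventricular differences, and counts and list medians of the difference between sections at an unadjusted p. The words "atrial section" name the label.

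The atrial growth factor gene Bmp10 had no count in any of the 7 libraries, which allows up to 1.32 to 3.56 CPM per library (3 counts). Of the 16 atrial muscle markers all were in the table and 15 had a count. Their summed level ranged from 91.3 to 3263 CPM in 6 libraries and reached 64204 CPM in nanoplastics mouse 1. Myl2 was present in every library at 7612, 9924 and 9897 CPM in the controls and 9373, 10960, 13240 and 12190 CPM in the nanoplastics mice, after TMM scaling (trimmed mean of M-values), the scale used for single genes from here on. Of the 10 sinus node and conduction markers 8 had a count, and only Smoc2, which fibroblasts also express, had enough counts to be tested.

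**Figure D1:**
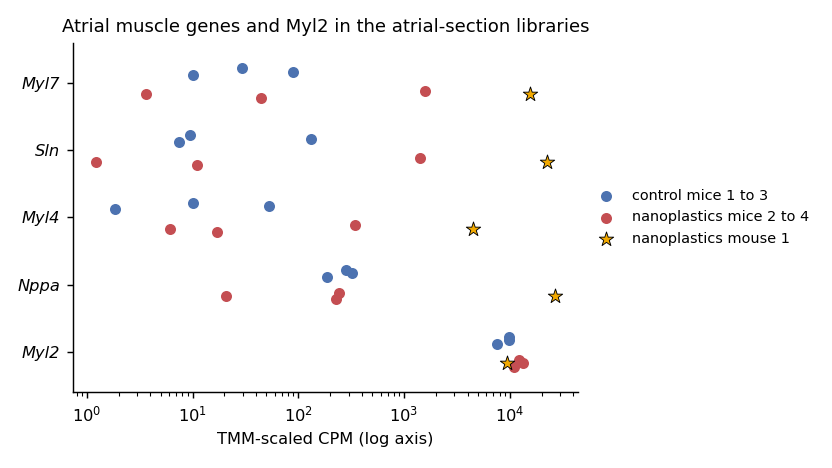
TMM-scaled CPM (log axis) of 4 atrial muscle genes and the ventricular light chain gene Myl2, each point a library. Nanoplastics mouse 1 (star) lies far to the right for Myl7, Sln, Myl4 and Nppa, while Myl2 spans only 7612 to 13240 CPM over the 7 libraries.

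Library totals ran from 841786 to 2275813 counts, and 12396 to 14417 genes had a count. Mitochondrially encoded genes took 21.5 to 27.5% of counts in 6 libraries and 15.6% in nanoplastics mouse 1. Exact two-sided permutation tests of 22 library measures over the 35 splits of the mice gave no adjusted p below 0.21, where the smallest raw p the design allows is 0.0286. In such bulk samples, fewer cells of a type and less RNA per cell cannot be told apart.

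No gene passed the test between nanoplastics and control mice. edgeR's quasi-likelihood test called 0 of 5502 genes at a Benjamini-Hochberg adjusted p under 0.05 (0%), with a smallest adjusted p of 0.205. At an unadjusted p under 0.05 there were 674 genes (12.3%), of which 356 were higher (6.47%) and 318 lower (5.78%) in the nanoplastics group. The lowest nanoplastics library lay above the highest control for 362 genes (6.58%), and the reverse held for 354 (6.43%). Without nanoplastics mouse 1, 0 of 5639 genes were called and 630 had an unadjusted p under 0.05 (11.2%), 336 higher (5.96%) and 294 lower (5.21%). Groups then did not overlap for 480 genes on the higher side (8.51%) and 486 on the lower (8.62%). The balance of the 2 directions depended on scaling and on single libraries. Library totals alone gave 72 higher and 932 lower genes and moved the median log2 change of all genes from -0.03 to -0.26. Removal of the trend on transcript length gave 172 and 321, and leaving out control mouse 3 gave 176 and 201.

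DESeq2 called 132 genes, 131 higher and 1 lower, the small heat shock protein gene Hspb7. Its filter on mean counts gave an adjusted p to only 904 genes (14.6% called, 14.5% higher and 0.111% lower), each with a mean of at least 133.1 counts. Unadjusted, 601 of 18147 genes had a p under 0.05 by DESeq2 (3.31%), 446 higher (2.46%) and 155 lower (0.854%). Of the 132, 48 encode ribosomal proteins, 11 complex I subunits and 19 subunits of the other respiratory complexes. In 116 of them nanoplastics mouse 1 was the highest library. Without that mouse DESeq2 called 78 of 1236 genes (6.31%), 75 higher (6.07%) and 3 lower (0.243%), of which 68 were among the 132. Adjusted over all 5496 genes that also passed edgeR's filter, DESeq2 called 3 (Rgs2, Ndufa3 and Ndufv3), and edgeR's own p-values adjusted over the 904 genes called 0. The genes and groups that follow are thus described by level and by unadjusted p. None of their atrial differences passed the adjusted test with edgeR in the main fit or in the fit without nanoplastics mouse 1. Counts of list members stand beside shares of all genes at an unadjusted p under 0.05 of 6.47% higher and 5.78% lower. Without nanoplastics mouse 1 those shares were 5.96% and 5.21%. Positive log2 differences were 2579 of 5502 over all genes, and 2636 of the 5427 also tested without that mouse.

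Rgs2 had the smallest p of all genes. It encodes a GTPase-activating protein that cuts G protein signals short, above all those through Gq, the pathway of angiotensin and endothelin in heart muscle. Its level was 23.1, 30.8 and 25.2 CPM in control mice 1 to 3 and 110, 49.9, 107 and 65.6 CPM in nanoplastics mice 1 to 4. All 4 nanoplastics libraries lay above all controls, with mice 1 and 3 the highest. The means were 26.4 ± 3.94 and 83 ± 29.9 CPM (SD, n = 3 and 4), a log2 difference of 1.63 (SE 0.29, unadjusted p = 3.72e-05, adjusted p = 0.205 by edgeR). Without nanoplastics mouse 1 the difference was 1.47 (SE 0.27, adjusted p = 0.114 by edgeR). Without nanoplastics mouse 2 it passed the test. Among the other 16 tested genes of G protein signalling, the inhibitory G protein subunit Gnai2 differed by -0.65 (SE 0.23; -0.62 without mouse 1), the regulatory subunit of protein kinase A Prkar1a by -0.50 (SE 0.18; -0.40 without mouse 1) and the pericyte gene Rgs5 by -0.52 (SE 0.24; -0.30 without mouse 1) on the log2 scale. The list as a whole had 2 higher and 3 lower members at an unadjusted p under 0.05 (6.47% and 5.78% of all genes). Its median was -0.21 (3 and 2 of 18, median -0.12, without mouse 1).

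Among the 20 genes with the smallest p, 3 encode secreted proteins: Penk, the precursor of enkephalin opioid peptides, and Fbln1, the matrix glycoprotein fibulin 1, at higher levels, and Vegfa at a lower one. Penk stood at 12, 10.3 and 15.9 CPM in the controls and at 34.8, 21.1, 28 and 28.1 CPM in nanoplastics mice 1 to 4 (log2 difference 1.10, SE 0.28). Fbln1 stood at 11.1, 6.52 and 13 CPM without and 47.7, 17.7, 43.8 and 18.7 CPM with nanoplastics (1.53, SE 0.40). Neither gene's groups overlapped, and nanoplastics mouse 1 was the highest library for both. Without that mouse the differences were 1.00 and 1.27. Vegfa, the growth factor of blood vessels, was lower, at 22.2, 29.8 and 28.8 CPM in the controls against 10.3, 11, 18.2 and 9.86 CPM in the nanoplastics mice (-1.17, SE 0.29; -1.13 without mouse 1). Nanoplastics mouse 3 alone came close to the controls.

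The long noncoding RNA Neat1, the scaffold of nuclear paraspeckles, was lower in every nanoplastics library. It stood at 45.3, 62.4 and 38.9 CPM in control mice 1 to 3 and at 14.2, 19.4, 28 and 23.7 CPM in nanoplastics mice 1 to 4, with mouse 1 the lowest. The log2 difference was -1.17 (SE 0.26, adjusted p = 0.305 by edgeR) and -1.05 (SE 0.25, adjusted p = 0.219) without mouse 1. Wipi1, a lipid-binding protein of autophagosome formation, had the second smallest p. It stood at 63.8, 81.1 and 64.1 CPM in the controls and at 32.3, 27, 37.7 and 34 CPM in the nanoplastics mice, a tight group well below the controls (-1.09, SE 0.22, adjusted p = 0.303 by edgeR; -1.08 without mouse 1). Luzp1, an actin-associated protein, stood at 30.5, 28.9 and 28.8 CPM in the controls and 11.6, 13.5, 13.4 and 15.8 CPM in the nanoplastics mice (-1.08, SE 0.25; -1.01 without mouse 1).

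Further genes with lower levels serve metabolism and the cell's inner skeleton. Afg3l2, a subunit of a protease in the inner mitochondrial membrane, stood at 85.1, 73.6 and 70.6 CPM in the controls and 24.5, 32.1, 34.1 and 53.7 CPM in the nanoplastics mice (-1.03, SE 0.25; -0.89 without mouse 1). Hexokinase 1 (Hk1), which starts glycolysis, stood at 13.9, 18.6 and 19.5 CPM without and 9.03, 5.07, 8.51 and 7.39 CPM with nanoplastics (-1.24, SE 0.32; -1.31 without mouse 1). Mat2a, which makes the methyl donor S-adenosylmethionine, stood at 112, 96 and 148 CPM without and 78.7, 65.1, 55.9 and 74.4 CPM with nanoplastics (-0.79, SE 0.21; -0.85 without mouse 1). In none of these did the groups overlap. Keap1, the protein that holds back the antioxidant factor Nrf2, stood at 25, 17.7 and 18.7 CPM in the controls and 2.58, 12.7, 8.51 and 7.39 CPM in the nanoplastics mice. Nanoplastics mouse 1 was lower there than the rest of its group, the groups did not overlap, and the log2 difference moved from -1.33 (SE 0.35) to -1.12 (SE 0.33) without it. Pgm5, a protein of muscle cell junctions, and Rflnb, a partner of the actin cross-linker filamin, differed by -1.07 and -1.06 (-1.04 and -1.12 without mouse 1) and did not overlap either. The adjusted p by edgeR was 0.305 for each of these genes, as it was for Penk, Fbln1, Vegfa and Luzp1.

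**Figure D2:**
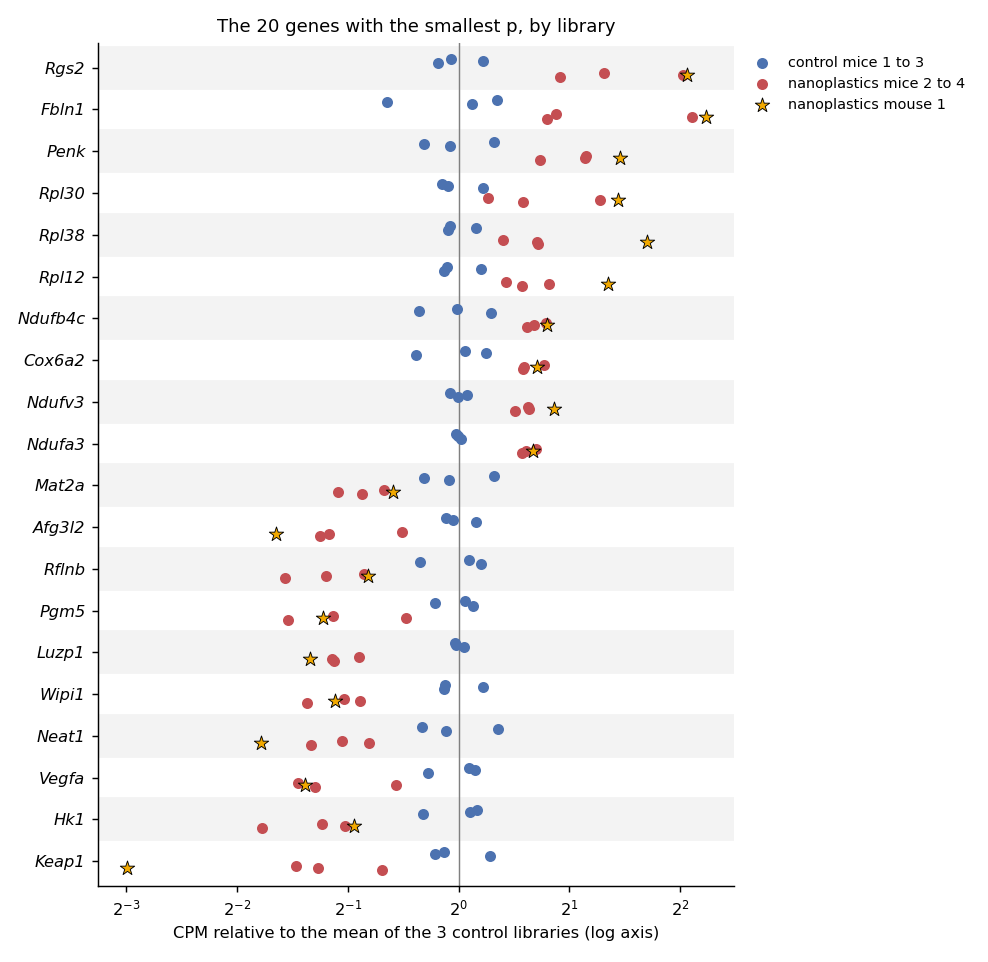
CPM relative to the mean of the 3 control libraries (log axis) of the 20 genes with the smallest p, each point a library. The groups separate in all 20 genes, Rgs2 spans 49.9 to 110 CPM with nanoplastics and 23.1 to 30.8 CPM without, and nanoplastics mouse 1 (star) is the library farthest from the controls for genes such as Keap1, Rpl38 and Rpl12.

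Cytosolic ribosomal protein genes, which build the protein-making machinery, differed in one direction. All 77 tested of 82 had a positive log2 difference. Of these, 64 had an unadjusted p under 0.05 against 6.47% of all genes, 0 were lower, and 48 did not overlap between groups against 6.58% of all genes. Their median log2 difference was 0.63 beside -0.03 for all genes, and single genes ran from 0.17 (Rpl8) to 1.04 (Rps12). The median per library, relative to the control mean, was 1.18 in nanoplastics mouse 1 and 0.54, 0.45 and 0.21 in mice 2 to 4, against 0.13, 0.05 and -0.19 in control mice 1 to 3. Every nanoplastics library was above every control, mouse 1 the most and mouse 4 by little. Without mouse 1 the median was 0.40, and 52 genes were higher and 0 lower at an unadjusted p under 0.05.

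Rpl38, Rpl12 and Rpl30, all proteins of the large ribosomal subunit, had the smallest p of the list, each with an adjusted p of 0.305 by edgeR. Rpl38 stood at 131, 157 and 133 CPM in the controls and 457, 231, 230 and 185 CPM in the nanoplastics mice (0.96, SE 0.26; 0.61 without mouse 1). Rpl12 stood at 173, 218 and 177 CPM without and 482, 281, 333 and 254 CPM with nanoplastics (0.83, SE 0.22; 0.61 without mouse 1). Rpl30 stood at 471, 378 and 365 CPM without and 1095, 605, 980 and 486 CPM with nanoplastics (0.97, SE 0.25; 0.77 without mouse 1). In all 3 genes mouse 1 was the highest library and the other nanoplastics mice still lay above the controls. Ribosomal protein genes have many near-identical pseudogenes, and how reads shared with them were counted is not given, so their counts are uncertain. The list's share of all counts was 4.41 to 5.21% in controls, 9.27% in nanoplastics mouse 1 and 4.74 to 6.01% in the others, which overlapped the controls.

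The other translation genes did not share this direction. Of 39 tested factors, 5 were higher and 4 lower at an unadjusted p under 0.05 (6.47% and 5.78% of all genes). Their median was 0.07 (-0.03 without mouse 1, with 3 higher and 4 lower). Eef1b2, an elongation factor subunit, stood at 229, 189 and 161 CPM in the controls and 431, 230, 317 and 226 CPM in the nanoplastics mice (0.63, SE 0.23; 0.41 without mouse 1), where control mouse 1 lay among the nanoplastics mice. The elongation factor Eef2 stood at 156, 199 and 161 CPM without and 120, 123, 136 and 99.1 CPM with nanoplastics (-0.53, SE 0.18; -0.54 without mouse 1), and all its nanoplastics libraries were below all controls. Eif4ebp2, a repressor of cap-dependent initiation, stood at 14.8, 10.3 and 9.36 CPM without and 3.87, 2.54, 2.43 and 6.9 CPM with nanoplastics (-1.34, SE 0.44; -1.29 without mouse 1), without overlap. These and the further list examples below were chosen after their values were seen, mostly for a small p.

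Nuclear genes of the respiratory chain were higher in the nanoplastics group to a smaller degree. Of 37 tested subunits of complex I, which takes electrons from NADH, 12 were higher and 0 lower at an unadjusted p under 0.05 (6.47% and 5.78% of all genes), 21 did not overlap on the higher side (6.58% of all genes), and the median was 0.29. Of 44 tested subunits of complexes II to V, 21 were higher (6.47% of all genes) and 0 lower, 22 did not overlap on the higher side (6.58% of all genes), and the median was 0.36. With nanoplastics mouse 1 left out the medians were 0.33 and 0.33, with 20 and 25 higher genes (5.96% of all genes) and 0 lower in both lists. The per-library medians of complex I were 0.35, 0.24, 0.29 and 0.36 in nanoplastics mice 1 to 4 and 0.10, -0.03 and -0.07 in control mice 1 to 3. Those of complexes II to V were 0.54, 0.30, 0.39 and 0.39 against 0.10, -0.01 and -0.07. Mouse 1 lay within its group for complex I and above it for complexes II to V, and the groups of medians did not overlap in either list.

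Ndufa3, an accessory subunit of complex I, is shown with its full statistics. It stood at 1641, 1609 and 1586 CPM in control mice 1 to 3 and 2571, 2401, 2458 and 2618 CPM in nanoplastics mice 1 to 4, with means of 1612 ± 27.4 and 2512 ± 99.7 CPM (SD, n = 3 and 4). The log2 difference was 0.64 (SE 0.17, adjusted p = 0.305 by edgeR) and 0.63 (SE 0.13, adjusted p = 0.127) without mouse 1. Ndufv3, a small subunit of the NADH-binding module, stood at 1732, 1826 and 1639 CPM in the controls and 3143, 2467, 2692 and 2676 CPM in the nanoplastics mice (0.66, SE 0.17; 0.59 without mouse 1). Cox6a2, the heart and skeletal muscle form of a cytochrome c oxidase subunit, stood at 5950, 9234 and 8102 CPM without and 12660, 11640, 11700 and 13270 CPM with nanoplastics (0.67, SE 0.18; 0.66 without mouse 1). Uqcrh, the hinge protein of complex III, stood at 2426, 2326 and 2068 CPM without and 4362, 3120, 3171 and 3157 CPM with nanoplastics (0.60, SE 0.19; 0.47 without mouse 1). In these 4 genes all nanoplastics libraries lay above all controls, and mouse 1 was the highest library for Uqcrh and Ndufv3. Ndufb4c, which differed by 0.72, is a near-identical copy of Ndufb4 (0.64), so the 2 may share reads. The lowest members were Ndufs6 (-0.27, SE 0.23; -0.10 without mouse 1) among complex I genes and Sdha (-0.26, SE 0.26; -0.07 without mouse 1), the catalytic subunit of complex II, in the other list, both with overlapping groups.

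Genes in mitochondrial DNA separated nanoplastics mouse 1 from its group. Of 8 tested mRNAs, 2 were higher and 0 lower at an unadjusted p under 0.05 (6.47% and 5.78% of all genes), with a median of 0.22. The per-library median was -0.50 in mouse 1 and 0.49, 0.33 and 0.51 in mice 2 to 4, against 0.25, -0.16 and -0.06 in the controls. mt-Nd2, a complex I subunit, stood at 14980, 16490 and 15410 CPM in the controls, at 24280, 23360 and 24240 CPM in nanoplastics mice 2 to 4 and at 13530 CPM in mouse 1. The log2 difference was 0.45 (SE 0.20, adjusted p = 0.377 by edgeR) and 0.62 (SE 0.12, adjusted p = 0.114) without mouse 1. mt-Nd3, another complex I subunit, stood at 886, 742 and 722 CPM without and 1099, 1300, 1115 and 1219 CPM with nanoplastics (0.60, SE 0.17; 0.63 without mouse 1), and there mouse 1 did lie above the controls. mt-Co1, the catalytic subunit of cytochrome c oxidase, overlapped between groups (0.02, SE 0.22; 0.17 without mouse 1). Without mouse 1 the median of the 8 was 0.43 and 6 were higher. With library totals alone the median of these mRNAs was -0.00, that of complex I 0.07, of complexes II to V 0.14 and of ribosomal proteins 0.41, beside -0.26 for all genes.

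The sequence just before the transcription start is shown for 5 of these genes. Rgs2, Rpl12 and Ndufa3 had the smallest p of all genes, of the ribosomal protein genes and of the complex I genes among those with an entry in the promoter table, and Rpl38 and Uqcrh were added, after the windows were read, because they carry the motif. The window is the 100 bases upstream of the start in RefSeq's annotation of GRCm38.p6, and capitals mark CCGGAAG or its reverse complement CTTCCGG, the core that ETS-family transcription factors bind.
Rgs2, chr1:144004150-144004249, minus strand: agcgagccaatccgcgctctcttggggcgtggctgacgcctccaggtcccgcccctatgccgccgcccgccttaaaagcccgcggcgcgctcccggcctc
Rpl12, chr2:32961612-32961711, plus strand: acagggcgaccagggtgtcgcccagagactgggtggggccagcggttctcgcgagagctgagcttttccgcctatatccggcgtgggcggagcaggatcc
Ndufa3, chr7:3617273-3617372, plus strand: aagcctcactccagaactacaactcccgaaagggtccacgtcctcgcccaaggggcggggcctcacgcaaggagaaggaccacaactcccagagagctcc
Rpl38, chr11:114668480-114668579, plus strand: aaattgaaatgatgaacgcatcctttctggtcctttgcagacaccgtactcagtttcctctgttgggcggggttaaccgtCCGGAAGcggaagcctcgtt
Uqcrh, chr4:116075071-116075170, minus strand: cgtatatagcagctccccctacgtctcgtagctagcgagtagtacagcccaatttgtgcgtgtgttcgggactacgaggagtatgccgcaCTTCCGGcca
The motif lies in the Rpl38 and Uqcrh windows, and these letters are not in the other 3. In windows of 300 bases (250 before to 50 after the start) on either strand, 9.92% of the 26994 genes of the table held it and 22.9% of the tested genes with a window. It was held by 24 of 57 ribosomal protein genes with a window (42.1%), 4 of 33 of complex I (12.1%) and 13 of 34 of complexes II to V (38.2%). A match describes letters only, and no binding was measured.

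Differences followed the annotated length of the transcripts. Among the shortest 1363 genes (57 to 1711 nt) the median log2 difference was 0.21, with 244 genes higher and 12 lower at an unadjusted p under 0.05. Among the longest 1363 (4304 to 106824 nt) it was -0.20, with 13 higher and 133 lower. The 2 bins between them stood at -0.01 and -0.10. The 4 medians without nanoplastics mouse 1 were 0.15, -0.00, -0.05 and -0.13. The shortest genes stood at 0.42, 0.20, 0.13 and 0.15 in nanoplastics mice 1 to 4 and at 0.10, 0.02 and -0.08 in the controls, relative to the control mean. Per count, and apart from mitochondrially encoded genes, the median length was 1697, 1735 and 1796 nt in the controls and 1318, 1549, 1550 and 1563 nt in the nanoplastics mice. All nanoplastics libraries were shorter than all controls, with mouse 1 lowest and the other 3 close to each other (exact permutation p = 0.0286, adjusted p = 0.21 over 22 measures).

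**Figure D3:**
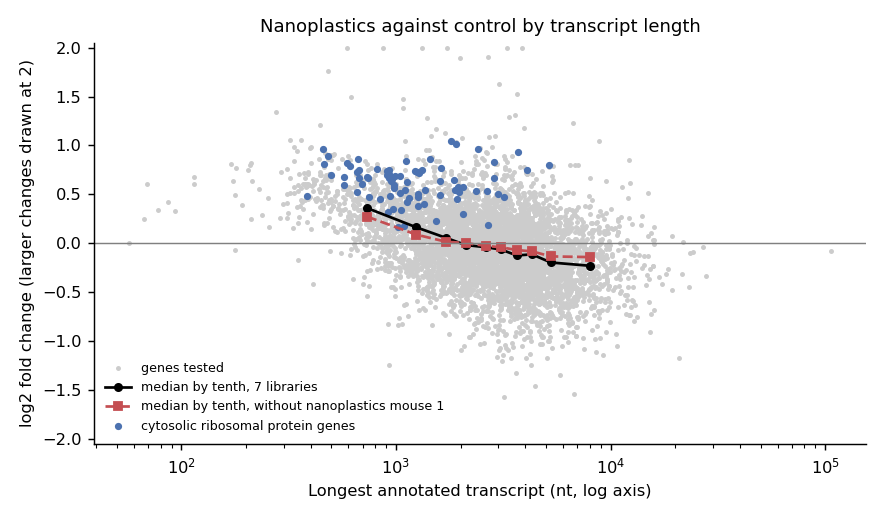
log2 fold change of nanoplastics against control (changes beyond 2 in size are drawn at 2) by longest annotated transcript (nt, log axis) of each tested gene, with the medians of successive length bins for all 7 libraries and without nanoplastics mouse 1. Ribosomal protein genes (blue) lie above 0 throughout their range of longest annotated length, and the medians pass from above 0 in short genes to below 0 in long ones.

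The groups above consist largely of short genes. Median lengths were 1106 nt for ribosomal proteins, 1046 nt for complex I and 1008 nt for complexes II to V, beside 2842 nt for all tested genes. After each library was corrected for this trend, the median difference was 0.35 for ribosomal proteins (31 of 77 higher at an unadjusted p under 0.05), 0.04 for complex I (4 higher, 1 lower of 37) and 0.11 for complexes II to V (7 of 44 higher). Over all 5502 genes in that fit the median was -0.05, with 172 higher and 321 lower at an unadjusted p under 0.05. The correction used the longest annotated transcript of each gene, such as 2863 nt for Rpl12 and 2412 nt for Rpl30. That transcript need not be the one expressed, so the correction may be incomplete and the remaining difference is not shown to be independent of length. RNA integrity was not measured in the data used here, and its part in the length trend was not tested.

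Sarcomere and calcium handling genes were split between higher and lower levels, with 15 of 28 and 9 of 20 log2 differences positive, whereas ion channel and intercalated disc genes were mostly at lower levels, with 2 of 17 and 3 of 16 positive. The ion channel and intercalated disc lists hold long genes, with median lengths of 4685 and 5055 nt. With the length trend removed their medians were -0.17 and -0.15. Of 28 sarcomere genes 1 was higher and 1 lower at an unadjusted p under 0.05 (6.47% and 5.78% of all genes). Their median was 0.04 (0.10 without mouse 1, with 2 higher and 1 lower of 29). Tnni3, cardiac troponin I, stood at 16330, 16510 and 16230 CPM in the controls and 19960, 21390, 23370 and 23380 CPM in the nanoplastics mice (0.43, SE 0.16). Tcap, the titin cap of the Z-disc, stood at 1855, 1589 and 1357 CPM without and 1067, 1191, 1243 and 1208 CPM with nanoplastics (-0.44, SE 0.17). Neither gene's groups overlapped, and neither difference depended on mouse 1 (0.48 and -0.40 without it). The adult myosin heavy chain Myh6 (0.09, SE 0.26; 0.21 without mouse 1) and the fetal one Myh7 (0.21, SE 0.42; -0.16 without mouse 1) overlapped between groups, and both turned negative with library totals alone. Titin (Ttn) differed by -0.08 (SE 0.31), and without mouse 1 its sign turned, to 0.12 (SE 0.33).

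Of 20 calcium handling genes 1 was higher and 1 lower (6.47% and 5.78% of all genes), with a median of -0.03 (0.06 without mouse 1, with 3 higher and 1 lower). Calr, the calcium-binding chaperone calreticulin, stood at 47.2, 67.1 and 59.1 CPM in the controls and 90.3, 76.1, 82.7 and 102 CPM in the nanoplastics mice (0.61, SE 0.21; 0.60 without mouse 1), without overlap. Jph2, which holds the calcium release units at the surface membrane, stood at 25, 15.8 and 21.6 CPM without and 3.87, 11, 18.2 and 11.3 CPM with nanoplastics (-0.89, SE 0.35; -0.68 without mouse 1), with nanoplastics mouse 3 among the controls. The release channel Ryr2 (-0.34, SE 0.26; -0.17 without mouse 1), the pump Atp2a2 (-0.05, SE 0.21; 0.06 without mouse 1), its inhibitor Pln (0.02, SE 0.17; 0.06 without mouse 1) and the kinase Camk2d (-0.39, SE 0.27; -0.29 without mouse 1) overlapped between groups.

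Among 17 ion channel and pump genes 0 were higher and 2 lower (6.47% and 5.78% of all genes), and the median was -0.22. Without mouse 1, which was the lowest library, 5 of 17 were positive, 0 were higher and 1 lower, and the median was -0.06. The calcium channel Cacna1c (-0.05, SE 0.28; 0.06 without mouse 1) and the potassium channel Kcnj3 (0.04, SE 0.30; -0.04 without mouse 1) overlapped. Kcnj2, Kcnh2, Kcnq1, Gja5 and the pacemaker channel Hcn4 did not pass the filter on low counts. Of 16 intercalated disc genes, which join muscle cells end to end, 1 was higher and 3 lower (6.47% and 5.78% of all genes). Their median was -0.27 (-0.19 without mouse 1, with 6 of 16 positive, 0 higher and 1 lower). The gap junction gene Gja1 stood at 120, 151 and 161 CPM without and 58, 112, 103 and 126 CPM with nanoplastics (-0.51, SE 0.23; -0.33 without mouse 1), and the junction protein Vcl stood at 18.5, 24.2 and 21.6 CPM without and 12.9, 9.29, 10.9 and 17.3 CPM with nanoplastics (-0.71, SE 0.29; -0.69 without mouse 1). Vcl separated the groups, whereas nanoplastics mouse 4 reached the controls for Gja1.

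The natriuretic peptides and atrial muscle genes differed widely within the nanoplastics group. Nppa, the atrial natriuretic peptide gene, stood at 187, 320 and 284 CPM in the controls and 27030, 229, 20.7 and 244 CPM in the nanoplastics mice. Mouse 1 stood far above every other library and mouse 3 was the lowest of all. The log2 difference of 4.71 had an SE of 2.78 and became -0.64 (SE 0.86) without mouse 1. Nppb, the gene of the ventricular stress peptide, stood at 438, 455 and 689 CPM without and 991, 510, 131 and 249 CPM with nanoplastics (-0.17, SE 0.70; -0.82 without mouse 1). Of the 8 tested atrial muscle markers 0 had an unadjusted p under 0.05, and their median was 3.37. Without mouse 1 only 6 were tested, with a median of 1.29, so the 2 medians cover different sets of genes. Of the 6, 3 were positive (Myl7, Myl4 and Sln), and these were high in nanoplastics mouse 4 alone, as Myl7 at 44.8, 3.65 and 1566 CPM in mice 2 to 4. The per-library median of the 8 was 5.42, -0.43, -0.42 and 0.81 in nanoplastics mice 1 to 4. In control mice 1 to 3 it was -0.87, 0.40 and -0.04. Stard10, a lipid transfer protein gene, stood at 1.85, 7.46 and 9.36 CPM without and 99.3, 2.54, 4.86 and 13.3 CPM with nanoplastics, high in mouse 1 alone. Of 15 genes of cardiac stress, 0 were higher and 2 lower (6.47% and 5.78% of all genes): Hspb7, a small heat shock protein, at 643, 819 and 719 CPM without and 468, 540, 461 and 506 CPM with nanoplastics (-0.56, SE 0.17; -0.53 without mouse 1), and the stretch-induced Ankrd1 at 1701, 1799 and 2195 CPM without and 1194, 2039, 941 and 798 CPM with nanoplastics (-0.61, SE 0.26; -0.59 without mouse 1). Hspb7 separated the groups and Ankrd1 did not, and the median of the 15 was -0.02 (-0.16 without mouse 1).

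**Figure D4:**
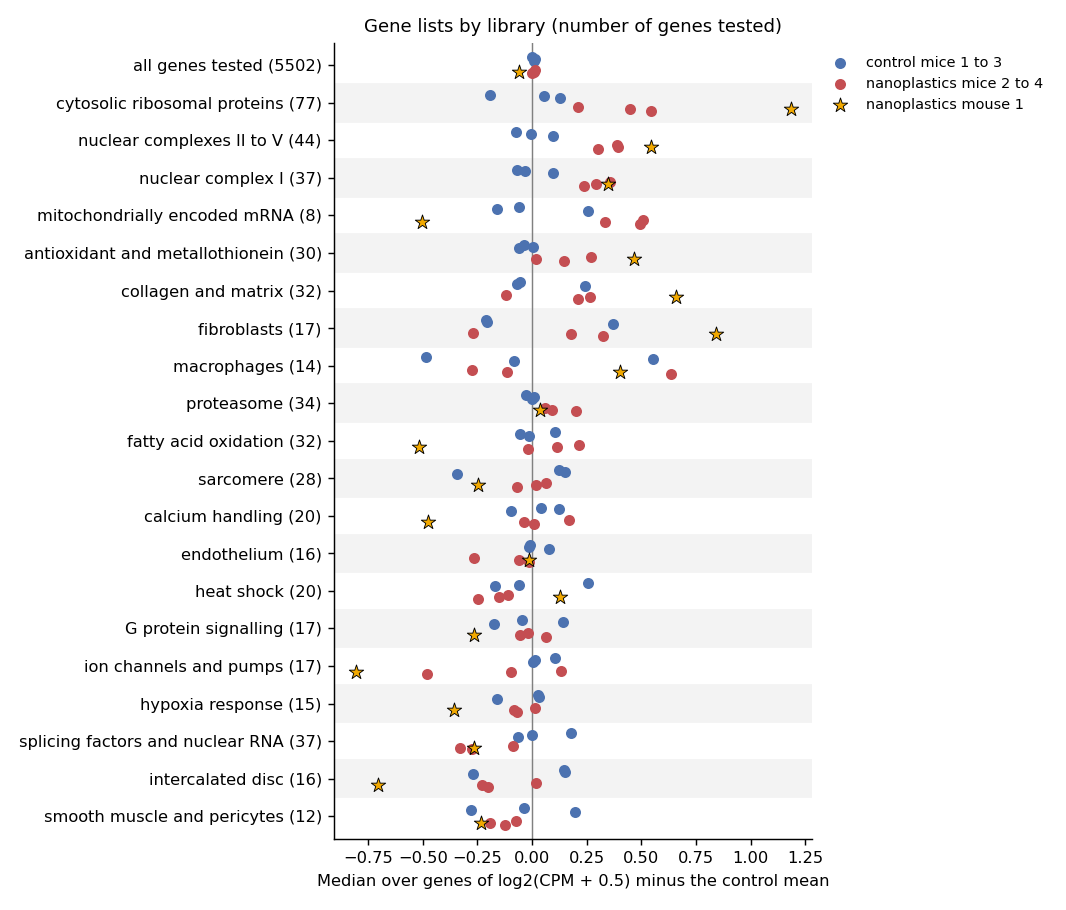
Median over the tested genes of each list of log2(CPM + 0.5) minus the control mean, each point a library, with the number of genes in brackets. Ribosomal protein and respiratory chain lists place every nanoplastics library above every control, whereas mitochondrially encoded mRNA, fatty acid oxidation and ion channels place nanoplastics mouse 1 (star) at the low end.

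Few metabolic genes outside the respiratory chain had an unadjusted p under 0.05 with all 7 libraries, beside 6.47% higher and 5.78% lower of all genes. Of 32 fatty acid oxidation genes 1 was higher and 0 lower, with a median of 0.02 (0.10 without mouse 1, with 6 higher and 1 lower of 33). Pdk4, the kinase that shuts pyruvate out of oxidation, stood at 21.3, 7.46 and 19.5 CPM in the controls and 16.8, 20.3, 30.4 and 47.3 CPM in the nanoplastics mice (0.89, SE 0.38; 1.06 without mouse 1). Mice 3 and 4 were above all controls, while mice 1 and 2 were among them. Ppara, the nuclear receptor of fatty acid use, stood at 14.8, 11.2 and 8.64 CPM without and 3.87, 6.76, 4.86 and 3.94 CPM with nanoplastics without overlap but passed the filter on low counts only without mouse 1 (-1.16, SE 0.42, adjusted p = 0.289 by edgeR). Of 34 genes of glycolysis and the tricarboxylic acid cycle 0 were higher and 2 lower, Hk1 and the phosphofructokinase gene Pfkl (-0.68, SE 0.29; -0.59 without mouse 1).

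Matrix genes were mostly at higher levels, with 23 of 32 log2 differences positive and 20 of 31 without mouse 1. Of the 32 genes 5 were higher and 0 lower (6.47% and 5.78% of all genes), with a median of 0.30 (0.19 without mouse 1, with 4 higher and 0 lower of 31). The groups separated for 3 genes on the higher side and 1 on the lower (6.58% and 6.43% of all genes). Per-library medians overlapped, at 0.66, 0.21, 0.26 and -0.12 in nanoplastics mice 1 to 4 and 0.24, -0.07 and -0.06 in control mice 1 to 3. Nanoplastics mouse 1 was the highest library and mouse 4 the lowest. Ltbp1, which stores TGF-beta in the matrix, stood at 10.2, 2.8 and 6.48 CPM in the controls and 18.1, 15.2, 18.2 and 12.3 CPM in the nanoplastics mice (1.23, SE 0.38; 1.17 without mouse 1). Efemp1, the matrix protein fibulin 3, stood at 13, 6.52 and 11.5 CPM without and 31, 15.2, 18.2 and 24.2 CPM with nanoplastics (1.07, SE 0.33; 0.92 without mouse 1). Both separated the groups, as Fbln1 did. Col3a1, a fibrillar collagen, stood at 33.3, 23.3 and 21.6 CPM without and 49, 29.6, 30.4 and 32 CPM with nanoplastics (0.42, SE 0.26; 0.25 without mouse 1), and control mouse 1 lay among the nanoplastics mice. Col1a1 was under the filter on low counts.

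Fibroblast markers were mostly at higher levels with nanoplastics mouse 1 in the group and not without it. Of 17 tested, 13 were positive and 4 were higher and 0 lower at an unadjusted p under 0.05 (6.47% and 5.78% of all genes), with a median of 0.34. Without mouse 1, 8 were positive, 1 was higher (5.96% of all genes) and 0 lower, and the median was -0.05. All 21 markers were in the table with a count, and their summed level was 2618, 1794 and 1957 CPM in the controls and 3389, 2757, 2518 and 1766 CPM in the nanoplastics mice, which overlapped (exact permutation p = 0.343, adjusted p = 0.919). Serping1, an inhibitor of complement, stood at 88.8, 76.4 and 83.6 CPM without and 155, 118, 93.6 and 105 CPM with nanoplastics (0.50, SE 0.21; 0.36 without mouse 1). The part of fibroblast content in the matrix genes was not tested.

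Smooth muscle and pericyte genes were mostly at lower levels, with 2 of 12 log2 differences positive, beside 2579 of 5502 for all genes. Endothelial genes leaned that way less, with 6 of 16 positive. Their per-library medians were -0.02, -0.01, -0.06 and -0.265 in nanoplastics mice 1 to 4 and 0.08, -0.01 and -0.01 in control mice 1 to 3. Of the 16 endothelial genes 0 were higher and 2 lower (0 and 4 without mouse 1, 5.96% and 5.21% of all genes), with a median of -0.18 (-0.18 without mouse 1). The 2 were the receptor of Vegfa Flt1 at 12, 23.3 and 19.5 CPM in the controls and 12.9, 6.76, 9.73 and 9.37 CPM in the nanoplastics mice (-0.95, SE 0.32; -1.07 without mouse 1), and the phosphatase Ptprb at 25, 22.4 and 23.1 CPM without and 12.9, 17.7, 12.2 and 17.8 CPM with nanoplastics (-0.58, SE 0.26; -0.51 without mouse 1). The other Vegfa receptor, Kdr, differed by -0.65 (SE 0.36; -0.85 without mouse 1) and the angiopoietin receptor Tek by -0.61 (SE 0.34; -0.76 without mouse 1). Vwf went the other way, by 1.05 (SE 0.64) and by 1.28 without mouse 1, with overlapping groups. It stood at 10.2, 4.66 and 10.1 CPM without and 5.16, 32.1, 29.2 and 6.41 CPM with nanoplastics. All 20 endothelial markers had a count, and their sum was 1894, 1989 and 1857 CPM in the controls and 1802, 1885, 1563 and 1797 CPM in the nanoplastics mice, with the groups overlapping. The sum of 18 smooth muscle and pericyte markers was 6499, 6369 and 6896 CPM without and 4901, 5643, 5516 and 5876 CPM with nanoplastics, each nanoplastics mouse below each control (exact permutation p = 0.0286, adjusted p = 0.21). Pln and Des, which heart muscle expresses as well, made up most of that sum. The smooth muscle genes Acta2 and Tagln did not follow it. Acta2, smooth muscle actin, stood at 230, 18.2 and 15.6 CPM of the library total without and 45.1, 104, 81.2 and 32.1 CPM with nanoplastics, and Tagln, an actin-binding protein, at 152, 10.1 and 7.77 and at 20.2, 102, 75.5 and 24.2 CPM. In both genes control mouse 1 was the highest library and every nanoplastics mouse lay above control mice 2 and 3. Myh11 had the same order, at 57, 3.03 and 1.56 CPM without and 4.75, 20.1, 20.3 and 6.59 CPM with nanoplastics. Mylk and Smtn did not have it, and their groups overlapped. Mylk stood at 19, 9.08 and 10.1 CPM without and 8.32, 10.1, 7.89 and 5.71 CPM with nanoplastics. Smtn stood at 20.9, 12.1 and 25.7 CPM without and 21.4, 9.3, 12.4 and 15.4 CPM with nanoplastics. Of the 12 genes tested 0 were higher and 2 lower (0 and 0 without mouse 1), with a median of -0.27 (-0.24 without mouse 1). The sum of the sinus node markers separated in the same way, at 57.9, 38.4 and 55.2 CPM without and 28.5, 28.7, 31.6 and 36 CPM with nanoplastics, and Smoc2 was its largest part in each library.

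Of 14 macrophage genes 1 was higher and 0 lower, beside 6.47% and 5.78% of all genes (0 and 0 of 15 without mouse 1). Aif1 stood at 10.2, 28 and 15.9 CPM without and 36.1, 42.3, 25.5 and 20.2 CPM with nanoplastics (0.76, SE 0.34; 0.69 without mouse 1), and the sum of 22 markers overlapped between groups (lowest and highest 741 and 1556 CPM among controls, 751 and 1518 CPM with nanoplastics). The lymphocyte genes Cd3e, Cd4 and Cd8a had no count in any library, and the lymphocyte sum was 23.3 to 78.2 CPM over all 7. Hemoglobin genes, which have near-identical copies, were highest in control mouse 2, where Hbb-bs stood at 796 CPM against 92.5 to 436 CPM in the other 6 libraries. The adipocyte sum was 444 CPM in control mouse 1 and 85.5 to 140 CPM elsewhere. Cfd, complement factor D, which fat tissue secretes, stood at 155, 6.52 and 3.6 CPM in the controls and 28.4, 28.7, 35.3 and 29.6 CPM in the nanoplastics mice, so control mouse 1 was high and the other controls were below all nanoplastics mice. Without control mouse 1, Cfd was the single gene that edgeR called.

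Antioxidant genes were mostly at higher levels, with 21 of 30 log2 differences positive, and heat shock and hypoxia response genes mostly at lower ones, with 6 of 20 and 5 of 15 positive. Over all genes 2579 of 5502 were positive. Of the 15 hypoxia response genes, whose median was -0.23 (-0.09 without mouse 1), 0 were higher and 2 lower (6.47% and 5.78% of all genes). The 2 were Vegfa and Ankrd37, an early target of hypoxia-inducible factor, the latter at 14.8, 11.2 and 10.8 CPM in the controls and 7.74, 5.07, 4.86 and 3.94 CPM in the nanoplastics mice (-1.25, SE 0.38; -1.42 without mouse 1). Of the 30 antioxidant genes 4 were higher and 2 lower (6.47% and 5.78% of all genes), with a median of 0.27. That median was 0.14 without mouse 1, with 5 higher and 2 lower of 29, and 0.08 with the length trend removed. The glutathione transferases Gsta3 (10.2, 8.39 and 7.2 CPM without and 23.2, 13.5, 17 and 15.8 CPM with nanoplastics; 0.99, SE 0.32; 0.85 without mouse 1) and Mgst3 (666, 653 and 746 CPM without and 871, 941, 1043 and 1119 CPM with nanoplastics; 0.53, SE 0.17; 0.59 without mouse 1) were higher without overlap, and thioredoxin reductase Txnrd1 was lower beside Keap1 (-0.90, SE 0.32; -0.77 without mouse 1). Heme oxygenase Hmox1 was under the filter on low counts. Of the 20 heat shock genes 3 were higher and 2 lower, beside 6.47% and 5.78% of all genes (3 and 3 without mouse 1). Their median was -0.18 (-0.20 without mouse 1), and the chaperone Hsph1 stood at 22.2, 27 and 35.3 CPM without and 11.6, 11, 20.7 and 13.3 CPM with nanoplastics (-1.03, SE 0.29; -0.98 without mouse 1). Among the higher members, Hspb3 stood at 25, 30.8 and 28.8 CPM without and 49, 50.7, 31.6 and 38.5 CPM with nanoplastics, without overlap. Its log2 difference was 0.59 (SE 0.24) and 0.53 without mouse 1. Of 7 p53 target and apoptosis genes 1 was lower, the cell-cycle inhibitor Cdkn1a, at 16.7, 28 and 18 CPM without and 18.1, 11, 3.65 and 8.38 CPM with nanoplastics (-1.05, SE 0.37; -1.34 without mouse 1, the one nanoplastics mouse that reached the controls).

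For the lists of immune response, counts at an unadjusted p under 0.05 stand beside 6.47% higher and 5.78% lower of all genes. Of 9 inflammation genes 1 was higher and 1 lower, of 10 interferon response genes 0 in either direction, and of 22 complement and antigen presentation genes 2 higher and 0 lower. Without mouse 1 these counts were 0 and 1 of 9, 0 and 0 of 11, and 0 and 0 of 22. Of 34 proteasome genes 1 was higher (Psmb4, 0.51, SE 0.18; 0.45 without mouse 1), of 31 autophagy and lysosome genes 0, and of 7 clock genes 0. Without mouse 1, 4, 1 and 0 of these were higher. Of 10 immediate early genes 1 was higher and 1 lower, the zinc finger factor Klf6, at 22.2, 22.4 and 33.1 CPM without and 16.8, 13.5, 6.08 and 15.8 CPM with nanoplastics (-0.96, SE 0.31; -1.04 without mouse 1).

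Splicing factor and nuclear RNA genes leaned to lower levels. Of 37 tested, 0 were higher and 5 lower at an unadjusted p under 0.05 against 5.78% of all genes, and the median was -0.24 (-0.27 without mouse 1, -0.15 with the length trend removed). Besides Neat1 these were the nuclear RNA Malat1 at 985, 964 and 733 CPM in the controls and 615, 726, 485 and 771 CPM in the nanoplastics mice (-0.46, SE 0.20; -0.43 without mouse 1), the splicing regulators Rbfox2 (-0.86, SE 0.33; -0.85 without mouse 1) and Mbnl2 (-0.56, SE 0.25; -0.43 without mouse 1), and the nuclear scaffold protein Hnrnpu (-0.51, SE 0.22; -0.49 without mouse 1). Malat1 and Mbnl2 overlapped because nanoplastics mouse 4 lay above the lowest control, and the other 3 genes did not overlap. Rsrp1, an arginine- and serine-rich protein, belongs to no list here and stood at 90.6, 88.5 and 148 CPM without and 160, 34.6, 64.5 and 50.8 CPM with nanoplastics, high in nanoplastics mouse 1 and low in mice 2 to 4 (-0.55, SE 0.48; -1.15, SE 0.25 without mouse 1).

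The same animals' left ventricles were set beside the atrial section to ask whether the difference between groups depends on the section. In the left ventricle edgeR called 3 of 5440 genes (0.0551%), each with an adjusted p of 0.0414. The genes mt-Nd2 (0.65, SE 0.12) and mt-Nd4 (0.68, SE 0.13) rose (0.0368% of those tested), and Neat1 fell (-1.74, SE 0.32; 0.0184%). At an unadjusted p under 0.05 there were 768 genes (14.1%), 366 higher (6.73%) and 402 lower (7.39%). It called 0 without nanoplastics mouse 1. Rgs2 stood there at 34.5, 37.4 and 15.9 CPM in the controls and 83.1, 40, 67.8 and 43.2 CPM in the nanoplastics mice (0.87, SE 0.26, adjusted p = 0.144), without overlap. Ndufa3 and Cox6a2 differed by 0.54 and 0.79, and Wipi1 by -0.85. Ribosomal proteins had a left ventricular median of 0.33, complex I 0.26 and complexes II to V 0.28, beside -0.02 for all genes. The median of the difference between sections was 0.25, 0.05 and 0.11 for these lists.

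The difference between sections itself was tested as an interaction with the mouse as a block. It called 0 of 6175 genes (0%) with edgeR, the tool run for it, and 0 without mouse 1. At an unadjusted p under 0.05 there were 264 (4.28%), 130 with a more positive difference in the atrial section (2.11%) and 134 with a more negative one (2.17%). The smallest p was that of Xirp2, an actin-binding protein of the intercalated disc. Xirp2 stood at 441, 732 and 721 CPM in the control and 223, 561, 522 and 446 CPM in the nanoplastics atrial sections, and at 317, 450 and 400 and 479, 587, 574 and 662 CPM in the left ventricles. It was thus lower in the atrial section (-0.53, SE 0.27; -0.31 without mouse 1) and higher in the left ventricle (0.56, SE 0.15) of nanoplastics mice, a difference of -1.13 (SE 0.23, adjusted p = 0.352) that did not pass. The atrial groups overlapped and the left ventricular ones did not, and without mouse 1 the difference was -0.93 (adjusted p = 0.0938). The long genes Ttn (-0.86), Dst (-0.98) and Golga4 (-0.90) and the nuclear pore gene Ranbp2 (-1.22) had the same sign of difference with an adjusted p of 0.984. Without mouse 1 these 4 differences were -0.65, -1.01, -0.86 and -1.22, with an adjusted p of 0.492 to 0.581 by edgeR. Rgs2 (0.71, SE 0.30), Vegfa (-0.79, SE 0.41) and Fbln1 (1.68, SE 1.16) had adjusted p of 0.984. Without mouse 1 their differences were 0.77, -0.67 and 1.18, with an adjusted p of 0.9998 by edgeR. No gene is thus shown to differ between the sections in its response.

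**Figure D5:**
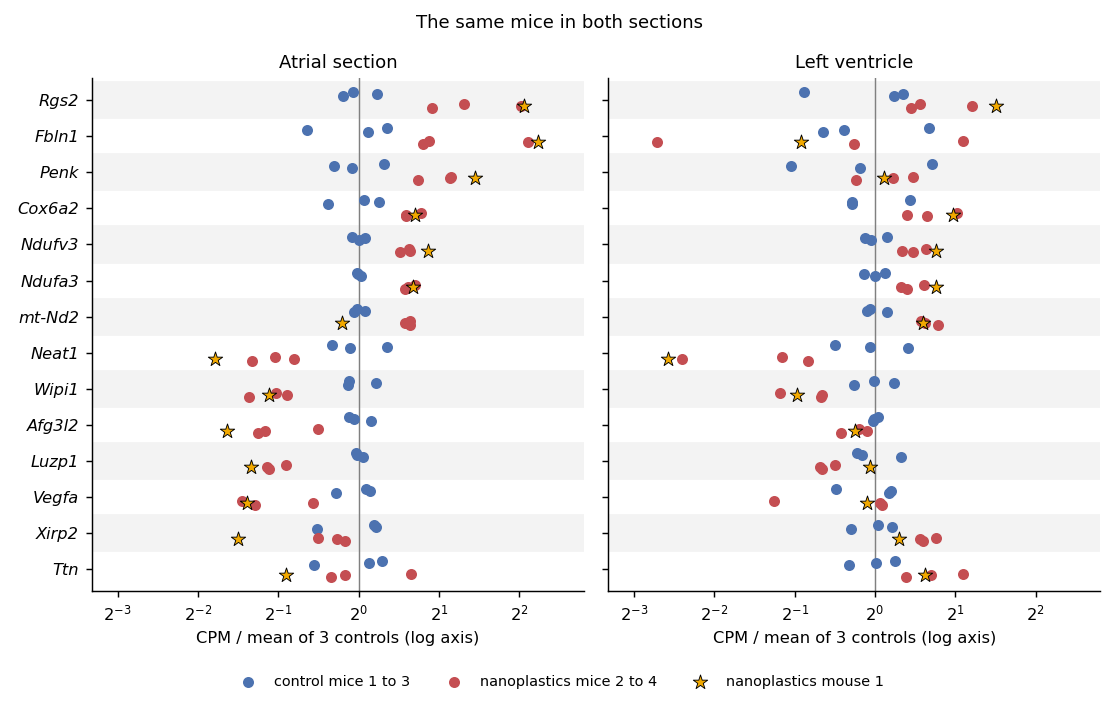
CPM relative to the mean of the 3 controls of the same section (log axis) in the atrial section (left) and the left ventricle (right) of the same mice, each point a library. Nanoplastics libraries of Neat1 and Wipi1 lie left of all controls in both sections, and those of Xirp2 lie right of all controls in the left ventricle only.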

How the data were processed

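Gene expression was measured in 21 heart libraries, of which the 7 labelled atrial section are analysed here, with the 7 left ventricular libraries for comparison. The deposited values are raw counts per gene symbol in 1 table of 20960 genes, and each column matched a library name in the labels. The submitters' processing notes name the aligner STAR without a version, while genome build, annotation, counter, strand setting and any molecular identifiers are stated in neither those notes nor the labels. Floors therefore cover counting error only. Library totals were 841786 to 2275813 counts. No 2 of the 7 libraries were identical, and the lowest chi-square per degree of freedom of the 21 pairs was 2.94.

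The test was run with edgeR 4.0.16 (R 4.3.3): filterByExpr kept 5502 genes (5639 without nanoplastics mouse 1), libraries were scaled by TMM, and the robust quasi-likelihood test was adjusted by Benjamini-Hochberg over all genes tested, with calls at an adjusted p under 0.05. Unless a tool is named, p-values come from this test. SE is the log2 difference divided by the square root of the F statistic. DESeq2 1.42.0 was an alternative, and exact permutation tests used scipy 1.17.1. The edgeR fits and the removal of the length trend were tested on simulated counts. Apart from the changes put in, these had a common mean per gene in all libraries, without the atrial muscle content of nanoplastics mouse 1. Recovery rates are not given here, so an absence of calls does not show equal levels. Lists are described by counts of members and medians, without a set test. Lengths are those of the longest GENCODE M21 transcript, known for 5450 of the tested genes. The comparison with the left ventricle had a term for each mouse. In the comparison between groups no such term was used, because mice that share a number are not the same animal.

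The members and the 44 gene lists were chosen with earlier results of these data known. Named genes are the 20 with the smallest p at a mean of at least 10 counts, leaving out predicted loci, because under 10 were called. Added were the 10 with the smallest p in the difference between sections and 29 heart genes, and list examples chosen afterwards. Not all are printed, and 1 gene of the lists is not reported here.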

Additional observations from a re-analysis of the deposited data

Results flagged for a closer look

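Of 60 values examined for a library apart from the rest of its group of 4 nanoplastics mice, 11 were marked, 9 of them in nanoplastics mouse 1. Chance marks about 1 in 20 groups of independent, normally distributed values. Many of the values here are related, and nanoplastics mouse 1 was known beforehand to be rich in atrial muscle transcripts. The number of marks can thus not be held against that rate. In nanoplastics mouse 1 the summed level of atrial muscle markers was 64204 CPM against 91.3 to 3263 CPM in the other 3 mice of its group. Nppa stood at 27030 CPM there, Myl7 at 15380 CPM, Myl4 at 4481 CPM and Sln at 22470 CPM, each far above mice 2 to 4. The ribosomal protein gene Rpl38 stood at 456.6 CPM against 185 to 231 CPM, and the collagen gene Col3a1 at 49.0 CPM against 29.6 to 32.0 CPM. The 50 most abundant genes took 42.95% of its counts against 48.87 to 50.01%. Its median transcript length per count was 1318 nt against 1549 to 1563 nt.

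Vegfa was high in nanoplastics mouse 3, at 18.24 CPM against 9.86 to 10.98 CPM in the other 3. The summed level of epithelial and thymus markers was 63.27 CPM in nanoplastics mouse 4 against 1.55 to 8.32 CPM in the other 3, and the airway gene Scgb1a1 held 142 counts of that library.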

How the results depend on the processing

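edgeR called 0 genes in the atrial section with all 7 libraries, with the size factors of DESeq2's method, with library totals, with a mean of at least 20 counts, with the length trend removed and with an atrial muscle covariate. DESeq2 called 132 (131 higher, 1 lower), or 3 (3 higher, 0 lower) adjusted over the genes that passed edgeR's filter, and edgeR without a filter beyond 1 count called 17 (15 higher, 2 lower). In that edgeR fit 6 of 38 named genes passed, among them Rgs2 (adjusted p = 4.85e-06 by edgeR), Fbln1 (0.00669) and Rpl38 (0.0123). With a replicate block edgeR called 106 (94 higher, 12 lower), 66 of them shared with DESeq2. The replicate numbers name different animals, and the correlations of same-numbered libraries were 0.15, -0.09 and 0.07. The nanoplastics libraries numbered 1, 2 and 3 correlated best with control 1, 1 and 3. The labels do not say whether same-numbered mice were handled together, and so few correlations cannot decide it. Leaving out each library in turn gave 0 to 1 calls, the 1 being Cfd without control mouse 1 and Rgs2 without nanoplastics mouse 2, both higher. Without nanoplastics mouse 1, edgeR called 0, DESeq2 78 (75 higher, 3 lower) and the replicate block 186 (142 higher, 44 lower). The block without mouse 1, edgeR over DESeq2's 904 genes and DESeq2 without its own filter were chosen after seeing the data. The left ventricle fell from 3 calls to 0 without nanoplastics mouse 1, and the difference between sections stayed at 0. At an unadjusted p under 0.05, counts higher and lower were 387 and 282 with DESeq2's size factors, 706 and 525 without a filter, 301 and 213 with a mean of at least 20 counts, 484 and 381 with the block, 224 and 236 with the covariate, and 446 and 155 by DESeq2.

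Of 564 log2 differences of 38 named genes under alternatives, 504 kept direction and side of the threshold, 27 passed it and 33 reversed, in 9 genes. The cause was not tested. Library totals gave Myh6 -0.14, Myh7 -0.022, Pln -0.21 and Kcnj3 -0.20. The replicate block gave Myh6 -0.079, Pln -0.037 and Kcnj3 -0.15. The atrial muscle covariate gave Nppa -0.94, Sln -0.63, Myh7 -0.058 and Kcnj3 -0.22. Removal of the length trend gave Atp2a2 0.091, Pln -0.019 and Cacna1c 0.16. Leaving out each library in turn, the 7 fits ranged from -0.64 (without nanoplastics mouse 1) to 5.15 for Nppa, from -0.82 to 0.14 for Nppb, from -0.13 to 0.25 for Myh6, from -0.16 to 0.46 for Myh7, from -0.21 to 0.065 for Atp2a2, from -0.037 to 0.064 for Pln, from -0.23 to 0.25 for Cacna1c and from -0.13 to 0.25 for Kcnj3. Depth limits the low genes: 1 count was worth 0.439 to 1.19 CPM.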
